A study of Mus musculus with 3 samples.

Results

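The cytosolic ribosomal proteins are the proteins that, with ribosomal RNA, build the small (40S) and large (60S) subunits of the ribosome outside mitochondria. Their genes were taken by symbol: Rpl or Rps followed by a number and at most 1 letter A, X or L with an optional digit, plus Rplp0, Rplp1, Rplp2 and Rpsa, with no pseudogene (-ps) symbol. The rule used no measured value. It found 83 of the 32285 genes of the deposited matrices, 32 of the 40S subunit and 51 of the 60S subunit, and 80 of them were measured.

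Neural progenitors from the brains of postnatal day 1 mice, grown as neurospheres with 20 ng/mL epidermal growth factor, were compared 4 h after 2 kinds of electroporation, in which an electric field opens the cell membrane. In bulk electroporation (BEP) plated cells were treated with a Lonza 4D Nucleofector Y unit, and in localized electroporation (LEP) cells lying on a localized electroporation device received 400 pulses at 20 V. The control library (CTRL) came from the same kind of culture; the labels do not say whether its cells lay on dishes or on devices, name no cargo, and give neither the mouse strain nor the number of animals. In all 3 conditions 50000 cells were plated on poly-D-lysine and cultured for 16 h before treatment, and 10000 cells entered the droplet device, which reads the 3′ end of each transcript.

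Each condition was 1 library, so replicate spread is unknown and no test was made. Intervals below are at 95% and cover counting error only. Levels are in CPM, the UMIs of a gene per 1000000 UMIs of the library, and ratios are of log2(CPM + 1); a UMI marks 1 captured transcript molecule, so levels need no correction for length. A gene was measured where its mean over the 3 libraries was at least 5 CPM, which 9535 genes were.

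A cell makes ribosomal proteins and ribosomal RNA in matched amounts, and this is one of its largest investments in growth. Ribosomal protein mRNAs are short, stable and abundant, and many start with a C followed by a run of C and T, the 5′ terminal oligopyrimidine (TOP) sequence, through which the kinase mTOR controls their translation. In neural progenitors ribosome production accompanies proliferation, and several ribosomal proteins (Rpl5 and Rpl11 foremost) also bind Mdm2 and so act on p53 when ribosome assembly is disturbed.

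Of 8 genes on which the results turn, 4 were lower in the electroporated libraries or lower after LEP than after BEP (Rpl13a, Rps15, Rpl5, Rps6). Rps2 had the highest ratio of BEP over CTRL, and 3 were lower after BEP than after LEP (Rps27, Rps21, Rpl39). The sequences around the start sites of these 8 are shown. Each runs 5′ to 3′ on the strand of the gene, from 25 bases before the start annotated by RefSeq on GRCm38.p6 into the first transcribed bases, and capitals mark each run of C and T that begins with C, holds at least 5 bases and lies at or within 10 bases of that start.
Rpl13a, chr7:45128721-45128770, minus strand: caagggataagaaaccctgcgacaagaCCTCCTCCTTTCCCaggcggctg
Rps15, chr10:80292406-80292455, plus strand: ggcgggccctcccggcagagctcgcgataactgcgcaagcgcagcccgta
Rpl5, chr5:107900503-107900552, plus strand: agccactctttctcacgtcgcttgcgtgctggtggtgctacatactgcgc
Rps6, chr4:86857343-86857392, minus strand: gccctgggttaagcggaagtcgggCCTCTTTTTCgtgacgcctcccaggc
Rps2, chr17:24720038-24720087, plus strand: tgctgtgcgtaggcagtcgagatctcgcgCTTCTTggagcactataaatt
Rps27, chr3:90213624-90213673, minus strand: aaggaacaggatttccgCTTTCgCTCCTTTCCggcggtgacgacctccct
Rps21, chr2:180257354-180257403, plus strand: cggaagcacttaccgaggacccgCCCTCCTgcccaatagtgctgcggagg
Rpl39, chrX:37085198-37085247, minus strand: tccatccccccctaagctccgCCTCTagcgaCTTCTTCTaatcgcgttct
In Rps6, Rps27 and Rps21 such a run spanned the annotated start, and Rps27 had another before it. Rpl39 had one that ended at the start and another after it, and Rpl13a and Rps2 had one shortly after it. Rps15 and Rpl5 had none within 10 bases of the RefSeq start. In GENCODE vM21 these 2 genes start at 80292453 and 107900502, outside that window, so the lack of a run holds for the RefSeq starts alone. Rpl13a, Rps6, Rps2 and Rpl39 also start outside it there, at 45128761, 86857412, 24718116 and 37085402. The runs marked in those genes likewise hold for the RefSeq starts alone. Rps21 has 2 annotated starts, of which 1 with a match is shown. The search used the letters C, then at least 4 bases that are each C or T, on the strand of the gene alone.

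Of the 83 genes, 63 had a start in the RefSeq table. The annotated start was a TOP match in 13 of them (20.6%), against 813 of all 27025 genes of the table (3.01%). With the start allowed to move by 10 bases either way, 39 of the 63 (61.9%) held a match, against 34.4% of all genes. The nuclear genes for mitochondrial ribosomal proteins held 0 exact matches among 69 and 31 (44.9%) in the wider window. A gene counted where any of its annotated starts matched, and a match describes these letters only.

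The libraries held 5531 BEP, 6298 LEP and 6091 CTRL cells that had 3000 or more UMIs, 500 or more genes and no more than 20% of UMIs from mitochondrial genes, with medians of 11644, 10980.5 and 9542 UMIs per cell. Cell barcodes shared between pairs of libraries numbered 6 to 9. The summed level of 8 neural progenitor markers (Sox2, Nes, Vim and others) was 8741 CPM in BEP, 10386 CPM in LEP and 7714 CPM in CTRL, and markers of microglia (7 genes), mural cells (6 genes) and erythroid cells (4 genes) each summed to under 2 CPM in every library, with Aif1, C1qa, Hbb-bs and Hbb-bt at 0 throughout. Astrocyte markers (8 genes) summed to 516 CPM in BEP, 935 CPM in LEP and 471 CPM in CTRL, and those of oligodendrocyte precursors (8 genes) to 681, 906 and 620 CPM in the same order. Those of oligodendrocytes (6 genes) summed to 54.5 CPM in BEP, 120 CPM in LEP and 56.3 CPM in CTRL, and those of dividing cells (8 genes) to 2949, 2414 and 2875 CPM. The part of these cells in the results was not tested.

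Ribosomal protein transcripts made up a smaller share of the UMIs after both treatments. They took 22.82% of UMIs in BEP cells (22.82 to 22.83%) and 21.75% in LEP cells (21.74 to 21.76%), against 24.78% in CTRL cells (24.76 to 24.79%). The log2 ratio of the shares was -0.12 for BEP over CTRL, -0.19 for LEP over CTRL and 0.07 for BEP over LEP. With the 7 clusters described below weighted equally, BEP over LEP was 0.026. Both subunits were lower by nearly the same factor: 40S genes took 9.93% in BEP, 9.44% in LEP and 10.7% in CTRL, and 60S genes 12.9%, 12.3% and 14.0%, so that the ratio of 60S to 40S UMIs was 1.30 in BEP, 1.30 in LEP and 1.31 in CTRL.

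The number of ribosomal protein UMIs per cell was not lower. It averaged 3198 in BEP and 2631 in LEP, against 2513 in CTRL, which is 1.27 times and 1.05 times the control value. All other UMIs averaged 10813 per cell in BEP and 9464 in LEP, against 7629 in CTRL, or 1.42 times and 1.24 times. UMIs per cell also depend on how deeply each library was sequenced, so the share and not the number per cell is compared in what follows.

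Within a library the share differed widely between cells. Its median per cell was 22.8% in BEP, 21.8% in LEP and 25.2% in CTRL, and 25.2% of BEP cells and 15.5% of LEP cells lay above the median CTRL cell. With 3000 UMIs drawn from each cell, the SD between cells was 3.72 percentage points in BEP, 3.47 in LEP and 4.15 in CTRL, against 0.768, 0.756 and 0.793 points from counting alone. The 40S and 60S shares of the thinned cells moved together (Pearson r across cells 0.87 in BEP, 0.87 in LEP and 0.89 in CTRL, over 5531, 6298 and 6091 cells that share a library each). Deeper cells had lower shares up to 25000 UMIs: in the cells of 3000 to 6000 UMIs and of 12000 to 25000 UMIs the medians were 25.1% and 22.1% in BEP, 24.0% and 21.4% in LEP, and 27.1% and 23.9% in CTRL. Above 25000 UMIs they were 22.5% in BEP (533 cells), 21.2% in LEP (173 cells) and 23.3% in CTRL (68 cells). In each of the 4 depth ranges the median was lower in BEP and in LEP than in CTRL, as the plot of shares by depth shows. The share of the summed UMIs was lower in BEP than in CTRL in the first 3 ranges and not in the last, where it was 23.3% in BEP and 21.3% in LEP, against 23.1% in CTRL.

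**Figure D1:**
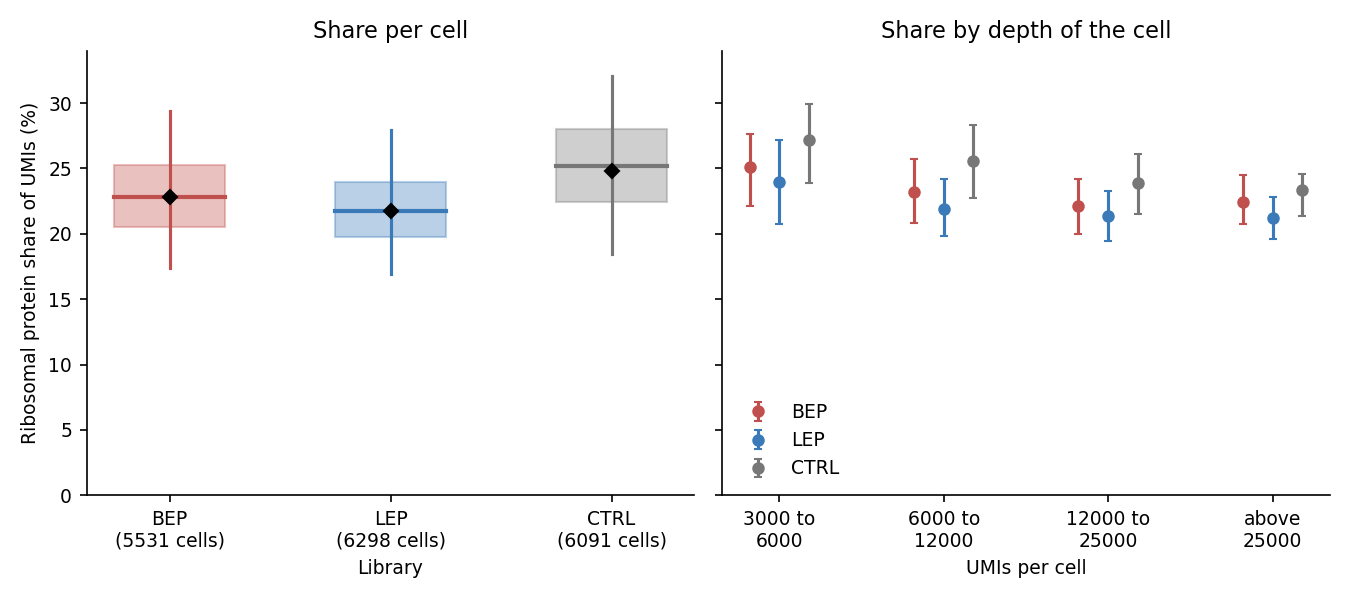
Share of UMIs (%) from the 83 ribosomal protein genes. Left, per cell in the BEP, LEP and CTRL libraries: box, 25th to 75th percentile, line in the box, median, vertical line, 5th to 95th percentile, diamond, share of the summed UMIs. Right, median share (points) and 25th to 75th percentile (bars) of cells in 4 ranges of UMIs per cell. The medians of BEP (22.8%) and LEP (21.8%) lie below that of CTRL (25.2%), and both stay below CTRL at each depth.

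The mitochondrial share of UMIs, a sign of cell condition, was 4.12% in the median BEP cell, 3.42% in LEP and 3.44% in CTRL. Across cells its Spearman correlation with the ribosomal protein share was -0.35 in BEP, -0.27 in LEP and -0.37 in CTRL; its part in the difference between libraries was not tested. Of the 13 mitochondrially encoded genes, 11 were above CTRL after BEP and 6 after LEP (medians of 0.22 and -0.01). Of all 9535 measured genes, 6176 and 6283 were above CTRL. Barcodes of 10 to 100 UMIs, taken here as free RNA, had a ribosomal protein share of 18.01% in BEP and 22.1% in LEP, against 14.8% in CTRL, and 9.62% of BEP, 9.10% of LEP and 17.0% of CTRL UMIs lay outside cells. With 10% of the UMIs of each library taken away in the profile of that free RNA, the log2 ratio of the shares was -0.15 for BEP over CTRL and -0.23 for LEP over CTRL.

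Gene by gene, most ribosomal proteins were lower after electroporation by small amounts. After BEP, 66 of the 80 measured genes were below CTRL, as were 3359 of all 9535 measured genes. The median log2 ratio of the 80 was -0.13 against 0.09 over all measured genes. At least 1.2-fold lower were 11 of 80 (13.8%; 7.92% of all measured genes), and none was at least 1.2-fold higher, where 24.4% of all measured genes were. After LEP, 69 of 80 were below CTRL, as were 3252 of all measured genes, with a median of -0.15 against 0.12 over all genes. At least 1.2-fold lower were 26 (32.5%, against 10.9% of all genes). None was at least 1.2-fold higher, where 31.5% of all genes were. No ribosomal protein gene reached 2-fold, which 0.692% of all measured genes did upward and 0.535% downward in BEP over CTRL, and 1.35% and 0.839% in LEP over CTRL. The 2 comparisons share the CTRL library. Abundant genes had medians nearer to 0 than all genes. For 87 other genes at least as abundant as Rpl4 they were 0.01 for BEP over CTRL and -0.01 for LEP over CTRL. Of these 87, 9 were at least 1.2-fold lower and 8 at least 1.2-fold higher in BEP over CTRL. In LEP over CTRL, 18 of the 87 were lower and 12 higher by that much.

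These counts depend on the scale. Median-of-ratios factors set the typical gene and not the total to be equal. With them the medians of all genes moved by -0.14 (BEP over CTRL) and -0.19 (LEP over CTRL). The ribosomal protein medians were then -0.28 against -0.04 for all genes and -0.35 against -0.07. At least 1.2-fold lower were then 41 and 66 of the 80, as were 1714 and 2511 of all 9535 measured genes. For BEP over CTRL the count was also 20 with the free RNA taken away, where 705 of all measured genes were lower. It was 20 when scaled to UMIs outside the ribosomal proteins (962 of all measured genes) and 18 in the largest cluster. For the largest cluster no count over all measured genes was made, so the 18 cannot be set against a general share. Over all genes, those higher made up 75.5% of the genes past 1.2-fold in BEP over CTRL and 74.3% in LEP over CTRL on the CPM scale, and 42.2% and 34.7% with those factors.

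**Figure D2:**
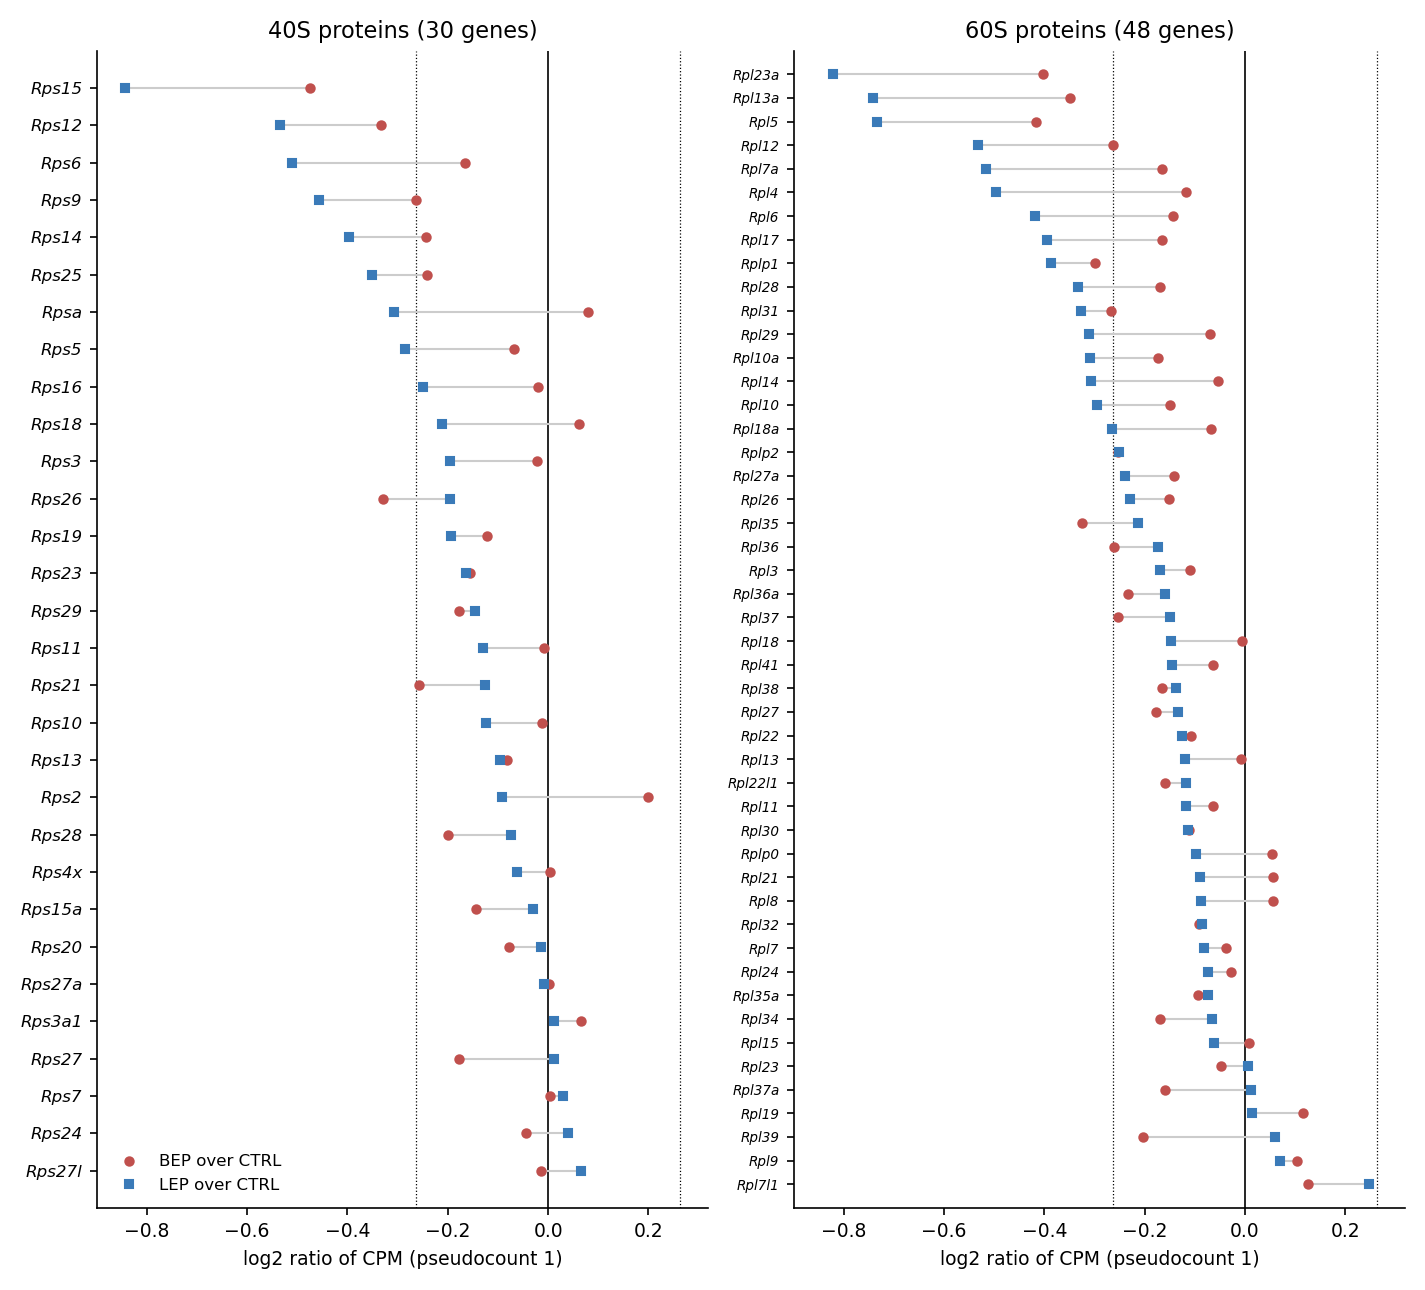
log2 ratios of CPM for 78 of the 80 measured ribosomal protein genes, 30 of the 40S subunit (left) and 48 of the 60S subunit (right), ordered by LEP over CTRL. Circles are BEP over CTRL, squares LEP over CTRL, the solid line is no difference and the dotted lines are 1.2-fold. Rps15, Rpl23a, Rpl13a and Rpl5 lie farthest to the left, and no gene passes the right dotted line.

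In the 40S subunit 25 of 32 genes were below CTRL after BEP and 27 after LEP, with medians of -0.10 and -0.15. Of all 9535 measured genes, 3359 and 3252 were below CTRL. Rps15 had the lowest ratios. It encodes a protein of the head of the subunit needed for the export and last processing of the 40S precursor. It was at 1715 CPM in BEP (1706 to 1725) and 1328 CPM in LEP (1320 to 1336), against 2384 CPM in CTRL (2372 to 2396). Both electroporated libraries lay below CTRL and LEP was the lowest, with log2 ratios of -0.47 for BEP over CTRL, -0.84 for LEP over CTRL and 0.37 for BEP over LEP.

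Rps12, also of the 40S head, which in fruit flies takes part in competition between cells with different ribosome dosage, was at 3454 CPM in BEP and 3006 CPM in LEP, against 4351 CPM in CTRL (-0.33 and -0.53). Of the 14 genes of the 40S head, 12 were below CTRL after BEP and 14 after LEP; 3 and 5 of them were at least 1.2-fold lower, as were 7.92% and 10.9% of all measured genes. Rps26, which lies where mRNA leaves the ribosome, was one of the 25 genes lower in BEP than in LEP: 3286 CPM in BEP and 3603 CPM in LEP, against 4127 CPM in CTRL.

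A small set of 40S genes differed in the other direction or hardly at all. Rps2, a protein at the mRNA entry side that arginine methyltransferase Prmt3 modifies, had the highest ratio of BEP over CTRL of all 80. Its level was 3314 CPM in BEP (3301 to 3326) and 2707 CPM in LEP (2696 to 2719), against 2885 CPM in CTRL (2871 to 2898). BEP was above and LEP below CTRL, with ratios of 0.20 and -0.09. Rpsa, also known as the laminin receptor, was at 4852 CPM in BEP and 3713 CPM in LEP, against 4594 CPM in CTRL (0.08 and -0.31). Rps24 was at 4254 CPM in BEP and 4508 CPM in LEP, against 4385 CPM in CTRL (-0.04 and 0.04). Under the median-of-ratios factors Rps2 stayed above 0 in BEP over CTRL (0.06), while Rpsa was at -0.07.

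In the 60S subunit 41 of 48 genes were below CTRL after BEP and 42 after LEP, with medians of -0.14 and -0.15. The counts over all 9535 measured genes were 3359 and 3252. Rpl23a, at the mouth of the peptide exit tunnel where the signal recognition particle docks, was at 1709 CPM in BEP (1700 to 1719) and 1278 CPM in LEP (1270 to 1286), against 2259 CPM in CTRL (2247 to 2271). Its log2 ratios were -0.40 for BEP over CTRL, -0.82 for LEP over CTRL and 0.42 for BEP over LEP, the last being the highest of the 80. Rpl13a, which in human monocytes leaves the ribosome to silence inflammatory mRNAs, was at 2288 CPM in BEP (2277 to 2298) and 1743 CPM in LEP (1733 to 1752), against 2914 CPM in CTRL (2901 to 2928), ratios of -0.35 and -0.74. As with Rps15, LEP was the lowest of the 3 libraries for both genes.

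The pair that binds 5S ribosomal RNA, Rpl5 and Rpl11, was unequal. Rpl5 was at 1155 CPM in BEP (1147 to 1162) and 927 CPM in LEP (920 to 934), against 1543 CPM in CTRL (1533 to 1553), ratios of -0.42 and -0.73. Rpl11 was at 3522 CPM in BEP and 3394 CPM in LEP, against 3680 CPM in CTRL, ratios of -0.06 and -0.12. Rpl5 therefore lay past 1.2-fold in both comparisons and Rpl11 in neither. Of the P stalk proteins, which recruit elongation factors, Rplp1 was at 4807 CPM in BEP and 4523 CPM in LEP, against 5916 CPM in CTRL (-0.30 and -0.39). Rplp2, its partner, was at 2522 CPM in BEP and 2527 CPM in LEP, against 3008 CPM in CTRL (-0.25 and -0.25). Rplp0, the base of the stalk, was at 3803 CPM in BEP and 3424 CPM in LEP, against 3662 CPM in CTRL (0.05 and -0.10).

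Of the 8 proteins around the peptide exit, 7 were below CTRL after BEP and 6 after LEP, and 3 were at least 1.2-fold lower in each, as were 7.92% and 10.9% of all measured genes. The exceptions included Rpl19, at 3793 CPM in BEP and 3533 CPM in LEP, against 3500 CPM in CTRL (0.12 and 0.01), and Rpl39, a very short protein of the tunnel wall, at 2749 CPM in BEP (2737 to 2761) and 3302 CPM in LEP (3289 to 3315), against 3167 CPM in CTRL (3153 to 3181). Rpl39 was lower than CTRL in BEP (-0.20) and slightly higher in LEP (0.06). Rpl9, near the stalk, was at 2487 CPM in BEP and 2430 CPM in LEP, against 2314 CPM in CTRL (0.10 and 0.07). Under the median-of-ratios factors Rpl19 was at -0.03 and -0.19, Rpl9 at -0.04 and -0.13, and Rpl39 at -0.35 and -0.14.

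Abundant genes differed among themselves. Rpl13 was at 6174 CPM in BEP and 5711 CPM in LEP, against 6207 CPM in CTRL (-0.01 and -0.12). Rpl41, which encodes the shortest protein of the set, was at 5886 CPM in BEP and 5556 CPM in LEP, against 6150 CPM in CTRL (-0.06 and -0.15). Rpl27a was at 4790 CPM in BEP and 4482 CPM in LEP, against 5288 CPM in CTRL (-0.14 and -0.24). The median of the mean levels of the 80 genes was 2894 CPM.

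Paralogs, genes whose proteins resemble that of another gene of the set and can differ from it in role, ranged from moderate levels to 0. Rpl7l1 had the lowest level of the measured genes, at 131 CPM in BEP (128 to 134) and 143 CPM in LEP (140 to 145), against 120 CPM in CTRL (117 to 123). Both electroporated libraries were above CTRL (0.13 and 0.25), LEP just inside 1.2-fold; with the median-of-ratios factors the values were -0.02 and 0.04. Rps27l, a p53 target, was at 1357 CPM in BEP and 1434 CPM in LEP, against 1371 CPM in CTRL (-0.01 and 0.07), and Rpl22l1 at 1216 CPM in BEP and 1252 CPM in LEP, against 1360 CPM in CTRL (-0.16 and -0.12). Rpl3l, known from heart and skeletal muscle, had 2 UMIs in BEP, 1 in LEP and 0 in CTRL. Rpl39l had 0 in BEP, 0 in LEP and 1 in CTRL, and Rpl10l, known from testis, had 0 in all 3, where a count of 0 allows up to 3 UMIs, a one-sided limit at 95%.

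The electroporated libraries also differed from each other. In BEP over LEP, 12 genes (15%; 13.7% of all measured genes) were at least 1.2-fold higher and 1 (1.25%; 17.2% of all genes) at least 1.2-fold lower. The share of higher genes was close to that of all genes. None reached 2-fold, which 0.933% of all measured genes did upward and 0.703% downward. The 12 were Rpl23a, Rpl13a, Rpsa, Rpl4, Rps15, Rpl7a, Rps6, Rpl5, Rps2, Rpl6, Rps18 and Rpl12, named after their values were seen where they are not among the 5 highest, and the 1 lower was Rpl39 (-0.26), which with median-of-ratios factors was at -0.20. Rpl4, one of the longest ribosomal proteins and part of the exit tunnel, was at 982 CPM in BEP and 755 CPM in LEP, against 1065 CPM in CTRL; its ratio of BEP over LEP was 0.38, next to Rpsa at 0.39. At the other end stood Rps27 (1632 CPM in BEP and 1863 CPM in LEP, ratio -0.19), Rpl37a (2823 CPM in BEP and 3179 CPM in LEP, ratio -0.17), Rps26 (-0.13) and Rps21 (2757 CPM in BEP and 3021 CPM in LEP, ratio -0.13).

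Genes at the 2 ends of that order differed in length. Coding length, read from GENCODE vM21 and not used to choose the genes, ran from 75 nt to 1257 nt, and across the 80 genes its Spearman correlation with the log2 ratio of BEP over LEP was 0.66 (Pearson 0.57). In the shortest 27 genes (75 to 399 nt) the median of BEP over LEP was -0.07, with 20 genes below 0. In the middle 26 (405 to 564 nt) it was 0.13, with 3 below 0, and in the longest 27 (576 to 1257 nt) it was 0.15, with 2 below 0. The same genes had medians for BEP over CTRL of -0.18, -0.09 and -0.04 from short to long, and for LEP over CTRL of -0.13, -0.20 and -0.20. All 27 of the shortest genes were below CTRL after BEP, as were 16 of the longest 27 and 3359 of all 9535 measured genes.

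For BEP over CTRL and LEP over CTRL the Spearman correlations across the 80 were 0.43 and -0.21. Across 4250 other measured protein-coding genes with coding lengths in that range the values were 0.04 for BEP over LEP, -0.11 for BEP over CTRL and -0.11 for LEP over CTRL. Across 78 mitochondrial ribosomal proteins they were 0.19, -0.49 and -0.49 in the same order. These correlations describe genes that share the same libraries.

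**Figure D3:**
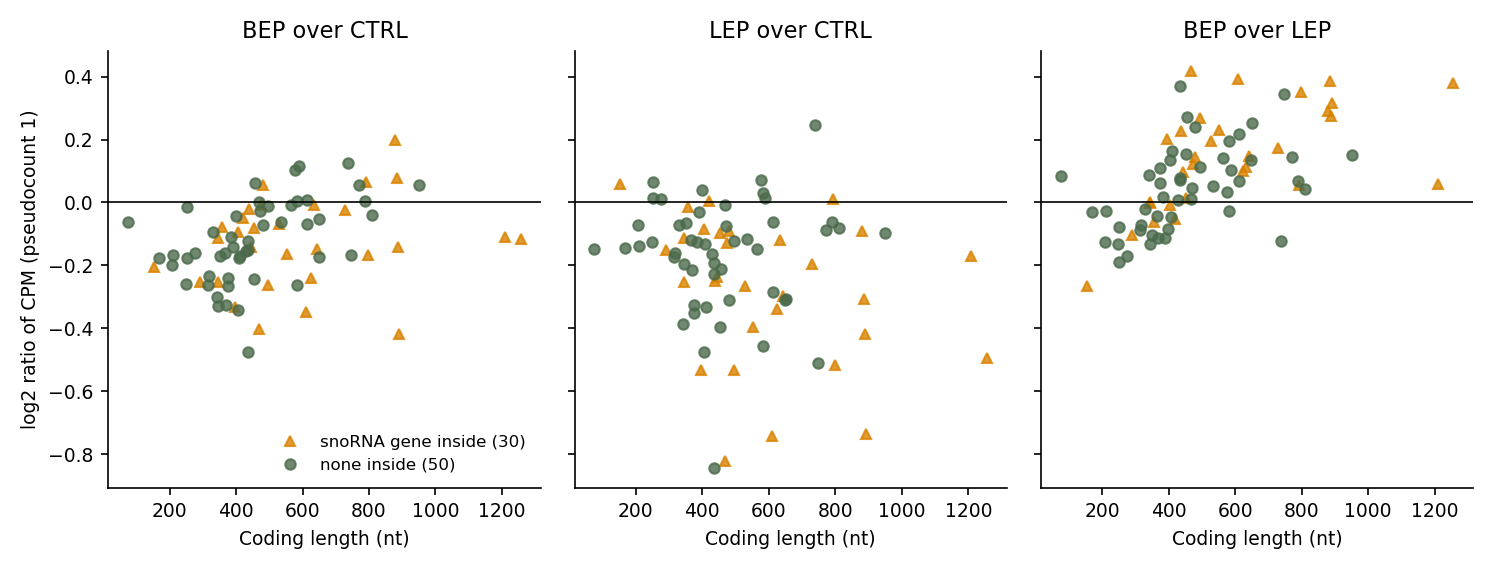
log2 ratio of CPM (y) against coding length in nt (x) for the 80 measured ribosomal protein genes, for BEP over CTRL, LEP over CTRL and BEP over LEP. Triangles are the 30 genes with a small nucleolar RNA gene inside, circles the 50 without. In the right panel most genes under 400 nt lie below 0 and most genes of 576 nt or more lie above it.

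Many ribosomal protein genes carry small nucleolar RNA (snoRNA) genes in their introns, which guide the modification of ribosomal RNA. Of the 80, 30 had an annotated snoRNA gene inside and 50 had none. Their medians were -0.11 with and -0.15 without for BEP over CTRL, -0.24 and -0.14 for LEP over CTRL, and 0.15 and 0.05 for BEP over LEP. Genes with a snoRNA were also longer (median coding length 511.5 nt, against 432 nt), and the correlation of length with BEP over LEP was 0.64 within the 30 and 0.59 within the 50. Among 160 other protein-coding genes with a snoRNA gene inside, the medians were -0.01, 0.02 and -0.03 for the 3 comparisons in that order. Among the 9117 other protein-coding genes with none inside they were 0.10, 0.12 and -0.03. Of the genes in the start-site table, the 36 measured with a TOP match in the wider window had medians of -0.16 for BEP over CTRL and -0.16 for LEP over CTRL, against -0.06 and -0.13 in the 24 without.

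The lower share was present in each kind of cell that could be compared. Cells were clustered on other genes, and 7 of the 11 clusters held at least 50 cells in every library. In all 7 the share was lower in BEP and in LEP than in CTRL, with log2 ratios from -0.17 to -0.06 for BEP and from -0.24 to -0.11 for LEP. In cluster 1, the largest of the 7 in the CTRL library, the share was 23.0% in BEP and 21.8% in LEP, against 25.8% in CTRL. In dividing-like cells (cluster 3, with Cenpf, Ccnb1 and Ube2c among its leading genes) it was 22.1% in BEP and 21.6% in LEP, against 23.7% in CTRL.

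Cluster 4, oligodendrocyte precursor-like cells led by Lhfpl3, Pdgfra and Sox10, had the highest share of the 7 in each library, at 25.7% in BEP and 25.01% in LEP, against 28.1% in CTRL. Its cells were also the shallowest of the 7, with medians of 5660 UMIs in BEP, 7040 in LEP and 4894 in CTRL, and shallow cells had higher shares in general. Cluster 2, led by replication-dependent histone genes with Clspn, Tk1 and Ccne2, had the lowest share in each library, at 21.6% in BEP and 20.9% in LEP, against 22.6% in CTRL. It also had the smallest differences, -0.06 and -0.11. Cluster 2 held 21.6% of the cells in BEP and 32.4% in LEP, against 14.3% in CTRL. The part of this in the shares of whole libraries was not tested.

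Single genes followed the same order of clusters with exceptions. In cluster 4 the level was the highest of the 7 clusters for 68 of the 80 genes in BEP, 67 in LEP and 66 in CTRL. Rps27l did not follow: in BEP it was at 1478 CPM in cluster 1 and 1149 CPM in cluster 4, in LEP at 1469 and 1260 CPM, and in CTRL at 1521 and 1199 CPM. Rps9, named after its range over clusters was seen, had one of the widest, from 2480 CPM in cluster 2 to 3544 CPM in cluster 4 in BEP, from 2196 to 3071 CPM in LEP, and from 2646 to 4160 CPM in CTRL.

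**Figure D4:**
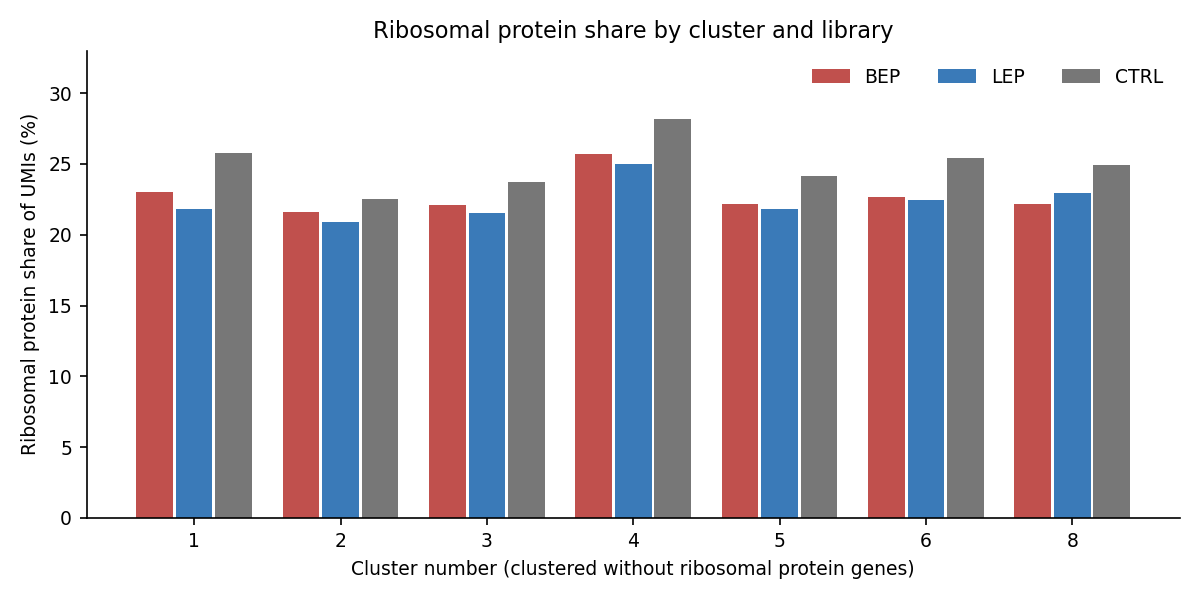
Share of UMIs (%) from ribosomal protein genes in the 7 clusters with at least 50 cells in every library, clustered without these genes. Bars are 1 library each (BEP, LEP, CTRL), with no error bar because there is no replicate. CTRL is the highest bar in each cluster, and cluster 4 is the highest cluster in each library.

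Of the 80 genes, 54 (67.5%) were lower in BEP than in CTRL in all 7 clusters, as were 8.61% of all measured genes. In LEP, 55 (68.8%) were lower than in CTRL in all 7, as were 10.0% of all measured genes. Above CTRL in all 7 were 6 of the 80 in BEP and 1 in LEP, and 21.6% and 21.7% of all measured genes. Most measured genes had far lower levels than most of the 80, so counting alone can change their sign between clusters. No share was taken over genes of matched level, so these percentages do not measure how much more uniform the 80 were. Rps15 was lower in each of the 7, with log2 ratios of -0.65 to -0.33 for BEP and -0.99 to -0.69 for LEP. Those of Rpl23a were -0.44 to -0.29 for BEP and -1.02 to -0.67 for LEP. Rpl13a had -0.38 to -0.21 for BEP and -0.87 to -0.60 for LEP, and Rpl5 -0.47 to -0.24 for BEP and -0.80 to -0.59 for LEP. Rps2 was higher in BEP in each of the 7 clusters (0.08 to 0.24), as was Rpl9 (0.03 to 0.16). The clusters come from the same 3 libraries and are not replicates.

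Between the treatments the share was higher in BEP than in LEP in 6 of the 7 clusters, by up to 0.08 on the log2 scale. The exception was cluster 8, with Bcas1 and Mbp among its leading genes and not named because 2 marker lists tied, with 22.2% in BEP (70 cells) and 23.0% in LEP (181 cells), against 24.96% in CTRL (94 cells). Rpl39 was lower in BEP than in LEP in all 7 clusters, with ratios of -0.35 to -0.20, and Rpl23a, Rpl13a, Rpl4, Rps15 and Rpl5 were higher in all 7.

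Some clusters lay mostly in 1 library. Cluster 6, led by Gdf15, Ddit3 and Chac1, held 166 BEP and 58 LEP cells, against 770 CTRL cells. Cluster 7, led by the interferon-response genes Cxcl10 and Isg15, held 533 BEP and 49 LEP cells, against 38 CTRL cells, and cluster 9, astrocyte-like, held 5 BEP and 215 LEP cells, against 6 CTRL cells. Without these clusters the log2 ratio of the shares was -0.13 for BEP over CTRL, -0.18 for LEP over CTRL and 0.05 for BEP over LEP.

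A few ribosomal genes have names outside the rule. Rack1, a scaffold on the 40S head, was at 1380 CPM in BEP and 1149 CPM in LEP, against 1647 CPM in CTRL (-0.26 and -0.52). Fau, which encodes the 40S protein eS30 fused to a ubiquitin-like domain, was at 3044 CPM in BEP and 3048 CPM in LEP, against 3254 CPM in CTRL (-0.10 and -0.09). Rpl36al, the close copy of Rpl36a, was at 1042 CPM in BEP and 1122 CPM in LEP, against 1120 CPM in CTRL (-0.10 and 0.00).

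Other genes of the translation machinery had medians nearer to 0 than the ribosomal proteins. These medians still lay below those of all measured genes, 0.09 for BEP over CTRL and 0.12 for LEP over CTRL. Of 20 other genes known for TOP mRNAs, none passed 1.2-fold in BEP over CTRL, where 7.92% of all measured genes were lower and 24.4% higher. In LEP over CTRL 4 were lower and none higher, where 10.9% of all measured genes were lower and 31.5% higher. The medians of the 20 were -0.01 and -0.08. Eef2, which moves the ribosome along the mRNA, was at 613 CPM in BEP and 457 CPM in LEP, against 653 CPM in CTRL (LEP over CTRL -0.52). Eef1a1, which brings aminoacyl-tRNA to the ribosome, was at 4595 CPM in BEP and 4056 CPM in LEP, against 5192 CPM in CTRL (-0.18 and -0.36). Npm1, a nucleolar assembly factor, was at 1634 CPM in BEP and 1759 CPM in LEP, against 1958 CPM in CTRL (-0.26 and -0.15). In the other direction, 7 of the 20 were above CTRL in BEP and 5 in LEP, where 6176 and 6283 of all 9535 measured genes were. Of the 20, Pabpc1 was above CTRL in both, at 366 CPM in BEP and 355 CPM in LEP, against 320 CPM in CTRL (0.19 and 0.15). Pfdn5 was at 491 CPM in BEP and 517 CPM in LEP, against 437 CPM in CTRL (0.17 and 0.24).

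Of 17 initiation and release factors not known as TOP genes, 3 were lower and none higher past 1.2-fold in BEP over CTRL (7.92% and 24.4% of all measured genes). In LEP over CTRL 2 were lower and 1 higher (10.9% and 31.5% of all measured genes). The medians of the 17 were -0.03 and 0.02. Eif2s2, the beta subunit of the factor that delivers initiator tRNA, was at 683 CPM in BEP and 544 CPM in LEP, against 954 CPM in CTRL (-0.48 and -0.81). Gspt1, a release factor, was at 233 CPM in BEP and 304 CPM in LEP, against 249 CPM in CTRL (LEP over CTRL 0.28). The 78 mitochondrial ribosomal proteins had medians of -0.01 and 0.02. Past 1.2-fold were 9 higher and 11 lower in BEP over CTRL (24.4% and 7.92% of all measured genes). In LEP over CTRL 16 were higher and 11 lower (31.5% and 10.9% of all measured genes). Mrps30 was at 39.9 CPM in BEP and 47.3 CPM in LEP, against 60.5 CPM in CTRL (-0.59 and -0.35), and Mrpl41 at 101 CPM in BEP and 139 CPM in LEP, against 77.8 CPM in CTRL (LEP over CTRL 0.83). These medians are smaller than the shift that the median-of-ratios factors give to all genes.

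Near-identical copies limit the single values. GENCODE vM21 gives the biotype of a pseudogene to 283 ribosomal protein copies with -ps symbols, none of which is a gene of the deposited matrices, and reads from such copies may have been lost or added to their parents. Of the -ps copies with another biotype that were counted, Rpl9-ps6 was at 48.9 CPM in BEP and 60.5 CPM in LEP, against 53.9 CPM in CTRL, and Rpl10-ps3 at 31.2 CPM in BEP and 33.7 CPM in LEP, against 38.6 CPM in CTRL. Both are small beside Rpl9 and beside Rpl10 at 1077 CPM in BEP and 972 CPM in LEP, against 1194 CPM in CTRL.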

How the data were processed

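The deposited files held whole UMI counts per gene and barcode, made by the authors with Cell Ranger 4, per the file headers, while the submitters' processing notes name Cell Ranger 6, Seurat 4.0.4 and GRCm38 (mm10). For the annotation, the release is not given in the sources used here. Each matrix listed all barcodes, 1591037 to 1726139 per library, empty ones included. Cells were called by the limits in the text, giving 61775756 to 77491732 UMIs per library; no doublet caller was run, so doublets remain. UMIs were summed per library, scaled to CPM and compared as log2(CPM + 1). A zero-count floor of 3 UMIs and exact Poisson or Clopper-Pearson intervals were used.

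Cells were clustered on 2000 variable genes without ribosomal protein, mitochondrial or -ps genes, scaled within library (30 components, 15 neighbours, leidenalg 0.10.2 at resolution 0.5). Cluster names needed at least 2 markers of 1 list among the 10 leading genes, and more than any other list. Ratios were tested on simulated data. Coding length and snoRNA genes came from GENCODE vM21 and start sites from RefSeq (GRCm38.p6). Coding length stood in for the planned comparison of protein sequences, which were not used here.

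The genes and lists were chosen with earlier results of these data known. Named genes are the 5 highest in level, the 5 highest and 5 lowest ratios per comparison, paralogs, 5S and stalk proteins and, for other lists, examples from the 4 largest ratios; some genes that this rule names are not reported here. Alternatives varied the cell limits, free RNA, scaling, floor, pseudocount, weighting of cells and clusters. Python 3.11.15, numpy 2.4.6, scipy 1.17.1, pandas 2.3.3 and scikit-learn 1.9.0 were used.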

Additional observations from a re-analysis of the deposited data

Results flagged for a closer look

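Barcodes of 10 to 100 UMIs, which were left out of the cells, carried a ribosomal protein share above that of the control library: 18.01% in BEP (17.97 to 18.05%) and 22.1% in LEP (22.04 to 22.13%), against 14.8% in CTRL (14.76 to 14.84%). In LEP this share was close to that in cells (21.75%), while in BEP and CTRL it was below the share in cells (22.82% and 24.78%). The order of the libraries in these barcodes differed from that in cells, where CTRL was the highest. The barcodes numbered 93391 in BEP and 92352 in LEP, against 48408 in CTRL. They held 3667209 UMIs in BEP and 2767216 in LEP, against 2994220 in CTRL, so their number does not measure the amount of free RNA. Their mitochondrial share was 4.64% in BEP and 5.68% in LEP, against 3.39% in CTRL.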

How the results depend on the processing

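No paired analysis was possible because each condition was 1 library. No alternative changed the sign of a ratio of shares or of a named gene past 1.2-fold. Named genes inside 1.2-fold were not judged for a change of sign. Some did change sign with median-of-ratios factors, among them Rpsa, Rpl19 and Rpl9 in BEP over CTRL. The log2 ratio of the shares ran, for BEP over CTRL (-0.12 as reported), to -0.12 with cells from 1/10 of the 99th percentile and with at most 10% mitochondrial UMIs, -0.13 with cells of 6000 to 20000 UMIs, -0.15 without 10% free RNA, -0.17 in the largest cluster, -0.13 as the mean over cells, and -0.13 with clusters weighted equally and without clusters 6, 7 and 9, a setting chosen after seeing the data. For LEP over CTRL (-0.19) the values that moved were -0.18 (6000 to 20000 UMIs), -0.23 (free RNA), -0.24 (largest cluster), -0.20 (mean over cells), -0.16 (clusters weighted equally) and -0.18 (without the 3 clusters). For BEP over LEP (0.07) they were 0.065 (1/10 of the 99th percentile), 0.058 (6000 to 20000 UMIs), 0.071 (10% mitochondrial), 0.088 (free RNA), 0.076 (largest cluster), 0.064 (mean over cells), 0.026 (equal weights) and 0.049 (without the 3 clusters). Genes at least 1.2-fold lower in BEP over CTRL numbered 11 as reported, 20 without free RNA, 18 in the largest cluster, 41 with median-of-ratios factors and 20 when scaled to UMIs outside the ribosomal proteins; in LEP over CTRL, 26 as reported and 66 with median-of-ratios factors, and 1 was higher in the largest cluster; in BEP over LEP the 1 lower gene became 0 without free RNA and with both other scalings. Over all measured genes, 1714 were lower in BEP over CTRL with median-of-ratios factors, against 755 as reported. In LEP over CTRL these counts were 2511 and 1038. No such count over all measured genes was made in the largest cluster. Of the 11 ribosomal protein genes, 10 to 11 were kept in each setting, and of the 26, 25 to 26. Median ratios moved, for BEP over CTRL (-0.13), to -0.15 (free RNA), -0.17 (largest cluster), -0.28 (median-of-ratios), -0.17 (outside UMIs), -0.12 (no floor) and -0.14 (without the 3 clusters); for LEP over CTRL (-0.15), to -0.20, -0.22, -0.35 and -0.21 for the first 4 of these; for BEP over LEP (0.07), to 0.061 (6000 to 20000 UMIs), 0.0949, 0.10, 0.13 and 0.094 for those 4, and 0.054 (without the 3 clusters). The cause was not tested. Of 924 values for 28 named genes, 434 moved beyond counting error. Counting error is small at this depth, and the spread between libraries of 1 condition is unknown.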

Other observations

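Cluster 10, 42 BEP and 39 LEP cells, against 4 CTRL cells, had the highest ribosomal protein share of the 11 clusters, at 29.9% in BEP and 29.9% in LEP, against 36.6% in CTRL. Its cells had few UMIs (medians of 3950 in BEP and 3611 in LEP, against 3274 in CTRL) and few mitochondrial UMIs (medians of 0.188% in BEP and 0.270% in LEP, against 0.934% in CTRL). Histone genes, Lars2 and AY036118 were among its leading genes, and it was not named. With 4 CTRL cells it was compared with nothing else.

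Cluster 7, led by Cxcl10 and Isg15 and found mostly in BEP, had a ribosomal protein share of 24.1% in BEP (533 cells) and 22.5% in LEP (49 cells), against 24.2% in CTRL (38 cells), and median depths of 24932 UMIs in BEP and 22616 in LEP, against 18571 in CTRL. Its BEP share was above that of all BEP cells (22.82%). In LEP the astrocyte-like cluster 9 had a share of 20.7% over 215 cells, below that of all LEP cells (21.75%).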
